A study of Homo sapiens with 18 samples.

Results

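The zinc finger genes of chromosome 19 were taken as the protein-coding genes on that chromosome whose symbol is ZNF followed by a number. There were 240 of them among 20056 protein-coding RefSeq genes, and all 240 were among the 19121 genes for which a strand, and so a start, could be set. Symbols with an added letter or a second gene name, such as ZNF780A, ZNF585B and ZNF587B, fall outside that rule (9 on chromosome 19 with a start). Histone methylation was profiled by chromatin immunoprecipitation and sequencing (ChIP-seq) in V16D, a castration-resistant prostate cancer line developed from LNCaP cells and grown in medium with fetal bovine serum. The control group (V16D/CTL) carried a control lentivector. The other group (V16D/H19) carried a lentivector that overexpresses the long non-coding RNA H19. Cells were transduced in biological triplicate, so each group had 3 replicates for H3K4me3 and 3 for H3K27me3, with 1 input library per replicate. No expression data of these genes or of H19 were used here.

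Most zinc finger genes of this chromosome encode DNA-binding repressors that join an array of C2H2 zinc fingers to a KRAB domain. The KRAB domain recruits TRIM28 (KAP1) and the H3K9 methyltransferase SETDB1, and many of these proteins silence transposable elements. The genes arose by tandem duplication and lie in dense clusters, whose bodies are known for H3K9me3, a mark not measured in this series. H3K4me3 marks the starts of active or poised genes, and H3K27me3 is laid down by Polycomb repressive complex 2 (PRC2).

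The promoters that carry the pattern described below are printed first. Each is 300 bases of RefSeq sequence on GRCh38.p14, from 250 bases before the start, 5′ to 3′ in the direction of the gene. Of the 240 genes, 174 had such a sequence at the start used here. Capitals mark CCGGAAG, an ETS-type motif, and TCCAATCA, an extended CCAAT box of the kind that NF-Y recognises, on either strand, so that they also appear as CTTCCGG and TGATTGGA. Both motifs were chosen after the sequences and their H3K4me3 were seen. ZNF274 (chr19:58182811-58183110, plus strand) had the strongest H3K4me3, by its mean rank, of the 202 genes marked in every list, and ZNF208 (chr19:22010894-22011193, minus strand) the weakest.
ZNF274: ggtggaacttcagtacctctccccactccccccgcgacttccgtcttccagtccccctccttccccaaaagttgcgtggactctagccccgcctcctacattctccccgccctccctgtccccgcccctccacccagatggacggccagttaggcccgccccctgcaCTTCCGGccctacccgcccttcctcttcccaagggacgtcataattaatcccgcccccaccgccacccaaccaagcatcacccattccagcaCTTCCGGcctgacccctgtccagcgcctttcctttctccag
ZNF208: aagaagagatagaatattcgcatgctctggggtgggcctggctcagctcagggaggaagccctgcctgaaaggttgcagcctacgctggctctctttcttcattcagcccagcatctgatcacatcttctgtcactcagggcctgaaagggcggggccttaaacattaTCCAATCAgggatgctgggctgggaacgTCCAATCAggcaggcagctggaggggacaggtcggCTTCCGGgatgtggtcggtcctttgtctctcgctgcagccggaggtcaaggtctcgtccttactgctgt

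The next pair is shown because similar promoters differed in the mark. ZNF486 (chr19:20166964-20167263, plus strand) had no H3K4me3 peak in any list and ZNF66 (chr19:20776054-20776353, plus strand) had one in all 6.
ZNF486: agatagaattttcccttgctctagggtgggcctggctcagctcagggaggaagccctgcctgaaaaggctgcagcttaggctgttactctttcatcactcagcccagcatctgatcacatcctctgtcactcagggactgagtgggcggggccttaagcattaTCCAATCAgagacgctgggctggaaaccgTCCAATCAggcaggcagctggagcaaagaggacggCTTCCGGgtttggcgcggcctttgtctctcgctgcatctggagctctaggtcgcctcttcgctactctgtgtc
ZNF66: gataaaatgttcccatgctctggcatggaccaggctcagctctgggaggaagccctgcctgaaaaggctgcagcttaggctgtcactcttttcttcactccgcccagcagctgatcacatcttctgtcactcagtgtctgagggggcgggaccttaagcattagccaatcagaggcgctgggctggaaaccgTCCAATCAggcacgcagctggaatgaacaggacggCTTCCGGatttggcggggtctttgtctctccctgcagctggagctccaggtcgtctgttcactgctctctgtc

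Among the 11 genes without H3K4me3 at any annotated start that had a promoter sequence, ZNF404 (chr19:43883915-43884214, minus strand) had the lowest CpG content and ZNF577 (chr19:51887902-51888201, minus strand) the highest. ZNF536 (chr19:30225342-30225641, plus strand) was the only one of the 240 with an H3K27me3 peak at its start in all 6 lists.
ZNF404: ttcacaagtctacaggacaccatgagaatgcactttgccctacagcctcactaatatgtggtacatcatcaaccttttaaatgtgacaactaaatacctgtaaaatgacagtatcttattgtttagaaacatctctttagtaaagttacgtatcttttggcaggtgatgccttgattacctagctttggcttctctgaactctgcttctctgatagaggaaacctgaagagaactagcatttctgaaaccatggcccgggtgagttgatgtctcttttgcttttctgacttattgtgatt
ZNF577: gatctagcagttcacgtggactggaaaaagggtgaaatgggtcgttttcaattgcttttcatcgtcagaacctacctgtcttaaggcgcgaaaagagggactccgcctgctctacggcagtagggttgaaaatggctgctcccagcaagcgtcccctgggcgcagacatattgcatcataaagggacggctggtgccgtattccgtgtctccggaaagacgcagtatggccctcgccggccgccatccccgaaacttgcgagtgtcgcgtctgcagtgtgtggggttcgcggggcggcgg
ZNF536: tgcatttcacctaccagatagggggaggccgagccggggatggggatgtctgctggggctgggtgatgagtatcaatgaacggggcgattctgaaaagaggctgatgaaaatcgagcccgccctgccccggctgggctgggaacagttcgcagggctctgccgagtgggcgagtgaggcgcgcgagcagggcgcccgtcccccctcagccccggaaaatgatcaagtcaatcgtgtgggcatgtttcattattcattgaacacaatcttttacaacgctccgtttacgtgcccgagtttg

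H3K4me3 lay at the starts of most of these genes, in the same genes in nearly every library. A gene was counted as marked when a peak of that list overlapped 1 kb to either side of its 5′ end. The V16D/CTL lists marked 204, 204 and 203 of the 240 genes, and the V16D/H19 lists 203, 203 and 204. The groups overlapped fully. In all, 202 genes (84.2%) were marked in all 6 lists, 35 (14.6%) in none and only 3 in some. For comparison, 57.1% of the 1146 other genes of chromosome 19, 82.2% of the 236 ZNF genes of other chromosomes and 61.4% of all 19121 genes were marked in all 6 lists. The difference between the groups (V16D/H19 minus V16D/CTL) was -0.333 genes per list. No gene had a peak at its 5′ end in all 3 lists of one group and in none of the other, against a background of 0.251% of all genes. The same held for H3K27me3, where the background was 0.356%.

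The 3 genes marked in some lists had weak peaks. Strength is given as the percentile of a peak within its own list by the authors' −log10 p, where 100 is the strongest. ZNF114 was missed only in V16D/H19 replicate 2 and stood at 14.3, 23.0 and 17.7 in V16D/CTL and at 28.6 and 13.0 in V16D/H19 replicates 1 and 3. ZNF875 had a peak at 12.5 and 7.81 in V16D/CTL replicates 1 and 2 and at 8.35 in V16D/H19 replicate 2. ZNF112 had 1 peak, at 1.70, in V16D/H19 replicate 3. The missing calls fell in both groups, and ZNF875 and ZNF112 carried a peak in all 6 lists at another annotated start. The edge of the window decided few genes. The peak covered the start itself in all 6 lists for 191 of the 202. Inside the window, the farthest peaks from a start were those of ZNF550 (0.865 kb) and ZNF225 (0.821 kb). Just outside it, the nearest peaks lay 1.48 kb from ZNF575, 1.55 kb from ZNF358 and 1.58 kb from ZNF536.

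The 35 genes without a peak at the 5′ end fell into 2 kinds. For 18 of them (7.50% of the 240) a peak lay within 1 kb of another annotated start of the same gene, in all 6 lists. That start was between 2.22 and 70.3 kb from the 5′ end, with a median of 8.09 kb. ZNF420 was the most distant, with peaks of mean percentile 75.0 at 70.3 kb. ZNF565 had the strongest such peak (81.3), at a start 58 bases from that of ZNF146, another member, so that peak cannot be given to 1 of them. The other start of ZNF558 lay 73 bases from that of MBD3L1. ZNF575 had the weakest peak (39.7). ZNF331, an imprinted gene, had no peak at its 5′ end but one in all 6 lists 17.8 kb downstream (mean percentile 52.0). Counting every annotated start, 222 genes (92.5%) were marked in all 6 lists.

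The other 17 genes (7.08%) had no H3K4me3 peak at any annotated start in any of the 6 lists. They were ZNF177, ZNF439, ZNF69, ZNF90, ZNF486, ZNF626, ZNF676, ZNF723, ZNF681, ZNF30, ZNF404, ZNF541, ZNF577, ZNF610, ZNF534, ZNF600 and ZNF154. ZNF541 is known for a role in meiosis in the testis, and ZNF154 and ZNF177 are known for promoter DNA methylation in several cancers. DNA methylation was not analysed here. The nearest H3K4me3 peak of any list lay between 2.33 kb (ZNF30) and 114 kb (ZNF486) away, with a median of 23.9 kb. None of the 17 carried H3K27me3 at its start either, so both marks measured here were absent from these starts at the authors' peak threshold.

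The genes fell into 20 groups when neighbours less than 500 kb apart were joined. Of these groups 8 were single genes, and 10 were clusters of at least 5 genes that together held 228. Genes without any marked start were spread over the clusters unevenly. The cluster at 19.7 to 24.1 Mb, where the primate-expanded members of the family lie, had 31 of 37 genes marked in all 6 lists, and its other 6 genes (ZNF90, ZNF486, ZNF626, ZNF676, ZNF723 and ZNF681) had no marked start at all. The cluster at 57.2 to 58.5 Mb, at the end of the long arm, had 38 of 41 marked and 1 gene, ZNF154, without a marked start. At 51.6 to 53.6 Mb the marked genes were 32 of 39, and 4 genes had no marked start. All 5 genes of the cluster at 2.8 to 2.9 Mb were marked. Strength varied between clusters as well. The median over genes of the mean percentile was, among clusters of at least 5, lowest at 43.5 to 44.5 Mb (54.0, 20 genes) and highest at 57.2 to 58.5 Mb (73.5, 38 genes). Counts per cluster are descriptions, since neighbouring genes are not independent.

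**Figure D1:**
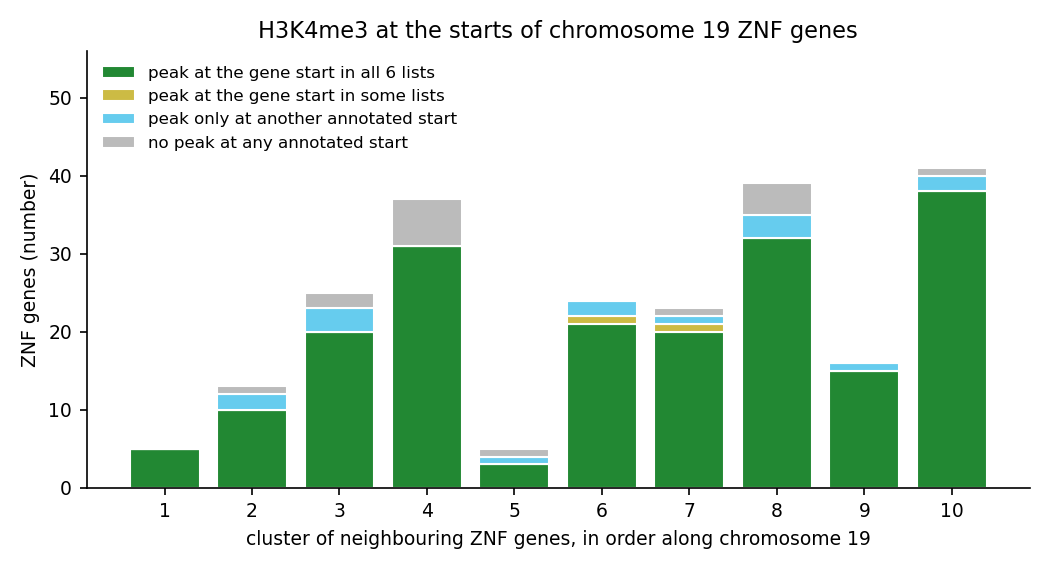
Number of ZNF genes in each of the 10 chromosome 19 clusters of at least 5 genes, in order along the chromosome, divided by where an H3K4me3 peak was found. Cluster 4 has 6 genes without a peak at any annotated start and cluster 10 has 38 of 41 genes marked in all 6 lists.

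Peaks at these genes were weaker and narrower in the median than those of all marked genes. Over the 202 genes, the median percentile of the strongest promoter peak was 66.8, 64.0 and 64.4 in V16D/CTL against 66.6, 65.8 and 65.1 in V16D/H19. Over all 11739 genes marked in all 6 lists it was 72.0 to 74.4, over the 194 ZNF genes of other chromosomes 75.9 to 80.1, and over the 654 other genes of chromosome 19 66.6 to 68.5. In each of the 6 lists the median of the 202 genes was the lowest of these classes. Median width ran from 1736 to 1810 bases over the 202 genes and from 2017 to 2117 bases over all 11739. It was 1798 to 1928 bases over the other genes of chromosome 19 and 2016 to 2148 over the ZNF genes of other chromosomes. The peaks reached a median of 526 to 582 bases upstream and 1142 to 1193 bases downstream of the start, against 680 to 734 and 1264 to 1306 bases over all genes. Over the other genes of chromosome 19 these medians were 558 to 619 and 1199 to 1258 bases, near those of the 202 genes. Over the ZNF genes of other chromosomes they were 748 to 818 and 1220 to 1301 bases. Mean percentiles over 6 lists ran from 30.9 to 87.5 over the 202 genes, with none at 90 or above and 17 under 50. The same counts were not made over all genes, so they cannot be read as a trait of this family. The median SD of a percentile within a group was 5.96 over the 202 genes and 5.75 over all genes.

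ZNF274, a KRAB zinc finger protein that binds the 3′ ends of other ZNF genes and brings SETDB1 to them, led the list. Its percentiles were 93.0, 82.2 and 86.3 in V16D/CTL against 91.8, 93.1 and 78.4 in V16D/H19 (means 87.2 ± 5.44 and 87.8 ± 8.14, SD, n = 3 each). ZNF625 (mean 87.2 over 6 lists), ZNF528 (86.9) and ZNF557 (86.7) followed, at distances from each other well inside the spread between replicates. At the other end stood ZNF208, with 27.8, 28.9 and 29.7 in V16D/CTL against 39.4, 35.3 and 24.4 in V16D/H19. ZNF556 (31.0), ZNF135 (33.2) and ZNF540 (34.0) were next. The groups overlapped at both ZNF274 and ZNF208.

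Width ordered the genes differently from strength. ZNF580 had the widest peak, 4716, 4809 and 4931 bases in V16D/CTL and 4750, 5161 and 4940 bases in V16D/H19, at a mean percentile of only 68.4. ZNF667 (mean 3291 bases), ZNF850 (3080) and ZNF460 (3047) came next, and 5 genes had a mean of 3000 bases or more. ZNF419, known as the source of a minor histocompatibility antigen, had the narrowest, 542, 516 and 558 bases in V16D/CTL and 500, 583 and 596 bases in V16D/H19, at a mean percentile of 62.8. ZNF773 (mean 562 bases), ZNF556 (596) and ZNF846 (726) were the other narrow ones, and 9 genes had a mean under 1000 bases. None of these 8 genes by width passed the test between groups.

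Whether H19 overexpression changed these peaks was tested with limma, gene by gene, on the percentile (as a normal score) and on log2 width, over all 11739 genes with a promoter peak in all 6 H3K4me3 lists. None of the 202 ZNF genes was called in either fit at an adjusted p under 0.05. Over all genes the fit called 0% by rank and 0.119% (14 genes) by width. The 14 calls by width depended on single libraries, with 5 without V16D/CTL replicate 2, 37 without V16D/CTL replicate 3, 27 without V16D/H19 replicate 3 and 0 with the replicate block, and none of these fits called a ZNF gene of chromosome 19. Before adjustment, 5 of the 202 (2.48%) had p under 0.05 by rank and 8 (3.96%) by width, against 7.45% and 7.03% of all genes. With limma the smallest adjusted p among the 202 was 0.530 by rank and 0.499 by width. The median difference by rank (V16D/H19 minus V16D/CTL, normal score) was 0.02 over the 202 and 0.04 over all genes.

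The 5 genes with the smallest p by rank are given with their replicates. For ZNF528 the percentiles were 86.7, 80.5 and 77.4 in the V16D/CTL lists and 90.4, 93.3 and 93.3 in the V16D/H19 lists. For ZNF614 they were 67.3, 57.4 and 63.2 against 72.9, 82.2 and 80.5. For ZNF547 they were 59.1, 65.0 and 65.5 against 90.4, 84.8 and 71.6. The groups did not overlap in these 3 genes, with V16D/H19 above. ZNF547 shares its RefSeq start with TRAPPC2B, so its peak cannot be given to 1 gene. ZNF611, which is known to bind SVA retrotransposons, had 78.1, 77.9 and 74.1 in V16D/CTL against 67.6, 64.3 and 55.6 in V16D/H19. ZNF93, which is known to bind and repress LINE-1 elements, had 65.5, 62.1 and 65.7 against 55.8, 56.6 and 48.1. Both lay lower in V16D/H19 without overlap. An exact two-sided permutation test of 3 against 3 lists gave p = 0.1 for each, which is the smallest it can give, and limma's adjusted p was between 0.530 and 0.663. Over the 202 genes, the groups did not overlap with V16D/H19 higher in 7 genes (3.47%) and lower in 4 (1.98%), against 9.28% and 3.99% of all 11739 genes.

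**Figure D2:**
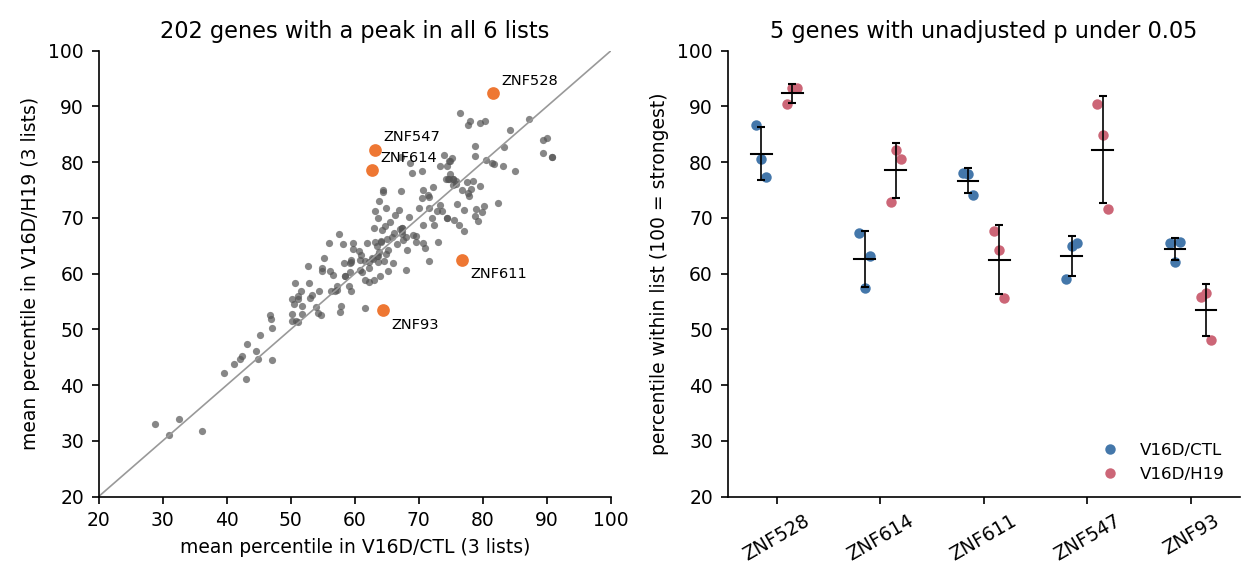
Left, mean percentile of the H3K4me3 promoter peak (100 is the strongest of its list) in V16D/CTL and V16D/H19 for the 202 genes marked in all 6 lists, with the line of equal values. Right, the 3 replicates, mean and SD of the 5 genes with the smallest p by rank, which separate the groups in these lists but had adjusted p of 0.530 or more with limma.

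By width, ZNF135 had the smallest p. Its peak measured 926, 982 and 804 bases in V16D/CTL and 706, 676 and 537 bases in V16D/H19 (means 904 ± 91.0 and 640 ± 90.2 bases, SD, n = 3 each). The log2 difference was -0.50 (SE 0.13) with an adjusted p of 0.499 from limma. When all peaks in the promoter window were summed, the difference was 0.08, so the direction rests on taking the strongest peak. ZNF582, a gene known for promoter methylation in cervical cancer, measured 1721, 1753 and 1784 bases against 1591, 1575 and 1415 bases. ZNF506, in the other direction, measured 1718, 1796 and 1738 bases against 1879, 1942 and 1946 bases. Neither passed the test, and their adjusted p values with limma were 0.597 and 0.644. The groups did not overlap by width in 9 genes with V16D/H19 wider (4.46%, background 7.37%) and in 7 with it narrower (3.47%, background 5.70%).

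The authors' table of differential H3K4me3 sites, which lists sites with an FDR up to 0.05, named 8 of the 240 genes, 1 site each. One site was higher in V16D/H19 and 7 were lower. That is 0.417% and 2.92% of the 240 genes, against 1.78% and 5.54% of all 19121 genes. Values are the authors' concentration, a log2 scale of normalized reads averaged over a group, for which the tables give no replicate values. Of these sites 4 lay at the gene's 5′ end and 4 elsewhere.

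Sites at the 5′ end were lower in V16D/H19. ZNF93 (chr19:19900204-19902491) had the largest difference of the 4, with a concentration of 8.66 in V16D/CTL against 7.99 in V16D/H19. ZNF844 (chr19:12064374-12066079) went from 8.80 to 8.53. ZNF628 (chr19:55475618-55478251) went from 8.98 to 8.71 and ZNF274 (chr19:58182118-58184624) from 9.40 to 9.16. Each of the 4 had a peak in all 6 lists. Only at ZNF93 did the percentiles of the groups not overlap. At ZNF274, whose percentiles stand above, and at ZNF844 and ZNF628 they did. For ZNF844 they were 81.6, 52.6 and 64.1 in V16D/CTL against 62.6, 75.9 and 63.6 in V16D/H19. For ZNF628 they were 53.5, 47.5 and 57.6 against 61.1, 56.4 and 57.7. At none of ZNF274, ZNF844 and ZNF628 was the mean percentile lower in V16D/H19, although the concentration was.

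Sites away from the 5′ end held the largest differences. At ZNF730 the site (chr19:23116980-23117891) lay 41.8 kb from the 5′ end, 5 bases from another transcript start by the authors' annotation. Its concentration was 3.26 in V16D/CTL against 4.98 in V16D/H19, a difference of 1.72. No V16D/CTL list had a peak there, and the V16D/H19 lists had 1, 2 and 1, the strongest at percentiles 32.3, 25.9 and 28.7. The peak at the 5′ end of ZNF730 was present in all 6 lists, at 53.0, 59.3 and 66.9 in V16D/CTL against 69.6, 61.7 and 65.4 in V16D/H19. The groups overlapped there. At ZNF578 the site (chr19:52492553-52493331) lay 39 kb from the 5′ end, at another transcript start by the authors' annotation. Its concentration was 4.58 in V16D/CTL against 3.25 in V16D/H19. Peaks stood at 20.8, 13.7 and 22.3 in V16D/CTL, at 4.65 and 1.70 in V16D/H19 replicates 1 and 3, and none was called in replicate 2. At ZNF331 the site (chr19:53520285-53522447) covered the start 17.8 kb from the 5′ end and went from 7.95 to 7.57. At ZNF552 the site (chr19:57803138-57804729) was annotated to the 3′ UTR, 10.2 kb from the 5′ end, and went from 6.85 to 6.09. Its percentiles were 38.1, 32.2 and 33.7 in V16D/CTL against 29.8, 28.4 and 29.5 in V16D/H19, without overlap. Matching by position rather than symbol added ZNF724 (8.49 to 8.16) and ZNF544 (9.55 to 9.35), both lower in V16D/H19.

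**Figure D3:**
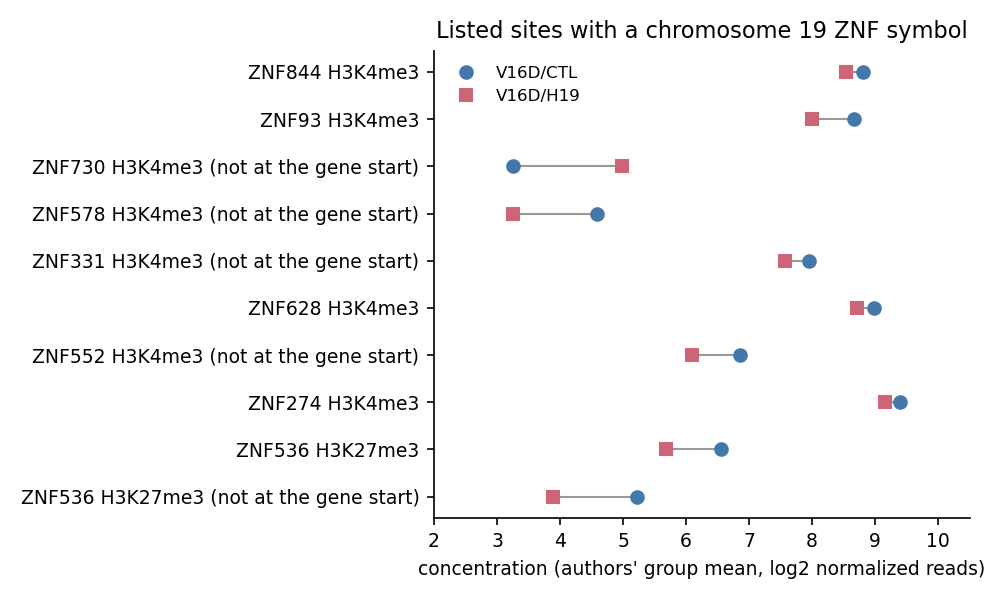
Concentration (the authors' group mean, log2 of normalized reads) in V16D/CTL (circles) and V16D/H19 (squares) at the 10 listed sites that carry a symbol of the 240 genes, 8 for H3K4me3 and 2 for H3K27me3. Only the ZNF730 site is higher in V16D/H19, and the sites at ZNF730, ZNF578 and the second ZNF536 site show the largest differences.

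H3K27me3 was almost absent from these genes. It lay at the start of 2 of the 240 (0.833%), ZNF536 and ZNF574, and was found in no list for 238 (99.2%). Over all 19121 genes 84.6% had it in no list and 6.46% in all 6, and over the other genes of chromosome 19 these shares were 85.4% and 5.06%. The ZNF genes of other chromosomes stood close to those of chromosome 19, with 96.6% in no list and 0.847% in all 6. The number of ZNF genes with H3K27me3 at the start was 2 in each list except V16D/H19 replicate 1, where it was 1. No gene had H3K4me3 and H3K27me3 at its 5′ end in the separate lists of the same replicate (0 in each of the 6). Over all genes 975 to 1130 did, and of the 236 ZNF genes of other chromosomes 2 to 4. At another annotated start, ZNF536 had both marks in 4 of the 6 replicates.

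ZNF536 encodes a zinc finger protein known as a negative regulator of neuronal differentiation and stands alone at 30.2 to 30.7 Mb, outside the clusters. Its H3K27me3 peak at the start measured 1201, 2817 and 1555 bases in V16D/CTL and 392, 651 and 324 bases in V16D/H19 (means 1858 ± 849 and 456 ± 173 bases, SD, n = 3 each). The groups did not overlap (exact permutation p = 0.1, the smallest possible). Strength did not follow width. The percentiles were 69.6, 61.5 and 94.1 in V16D/CTL against 88.4, 97.2 and 44.6 in V16D/H19, and overlapped (exact permutation p = 0.9). Along the 488 kb gene, H3K27me3 peaks covered 23047, 33541 and 36609 bases in V16D/CTL and 20286, 19769 and 16979 bases in V16D/H19. All 3 V16D/H19 values lay below the V16D/CTL values, and the number of peaks was 22, 32 and 38 against 25, 19 and 20.

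Both H3K27me3 sites that the authors' table gives for the 240 genes were at ZNF536 and both were lower in V16D/H19. The larger (chr19:30221347-30230757) covered the start and had a concentration of 6.56 in V16D/CTL against 5.68 in V16D/H19. The other (chr19:30374633-30376395), 149 kb downstream, went from 5.22 to 3.88. Of all genes, 3.13% had a listed H3K27me3 site that was lower and 0.230% one that was higher. On chromosome 19 all 26 listed H3K27me3 sites were lower. ZNF536 also had H3K4me3 in all 6 lists, 2.30 kb downstream of the 5′ end at a second annotated start, with percentiles of 44.4, 41.2 and 47.6 in V16D/CTL against 49.3, 47.3 and 48.0 in V16D/H19. Those peaks measured 910, 907 and 857 bases in V16D/CTL and 1198, 1208 and 1083 bases in V16D/H19, without overlap. Within 1 kb of that second start H3K27me3 was also called in the 3 V16D/CTL lists and in V16D/H19 replicate 1, and not in V16D/H19 replicates 2 and 3. At this gene the H3K27me3 peak at the 5′ end was narrower and the H3K4me3 peak downstream wider in each V16D/H19 list than in any V16D/CTL list. Neither shift is particular to it. Of all 11739 genes, 7.37% had an H3K4me3 promoter peak wider in V16D/H19 without overlap. Counting any annotated start, limma called no ZNF gene of chromosome 19 by width (smallest adjusted p 0.195). Outside the clusters, mean H3K27me3 coverage of the chromosome was 24.1 bases per kb in V16D/CTL and 16.3 in V16D/H19.

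ZNF574 had a small H3K27me3 peak within 1 kb of its start, of 502, 819 and 1520 bases in V16D/CTL and of 310 and 378 bases in V16D/H19 replicates 2 and 3. In V16D/H19 replicate 1 its peak lay in the gene outside that window and measured 295 bases. H3K4me3 lay 7.69 kb away at its second annotated start in all 6 lists. ZNF420 was the only further gene with H3K27me3 in its body, 293 bases in V16D/CTL replicate 2 and 337 bases in V16D/H19 replicate 2.

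The clusters as a whole were poor in H3K27me3. In the 10 clusters of at least 5 genes (14.4 Mb), peaks covered 6.08, 8.87 and 8.01 bases per kb in V16D/CTL against 4.68, 6.26 and 5.25 in V16D/H19. In the remaining 44.1 Mb of the chromosome they covered 20.1, 24.8 and 27.5 against 14.3, 17.2 and 17.3 bases per kb. The groups overlapped inside the clusters (exact permutation p = 0.2) and did not in the rest (p = 0.1, exact, the smallest possible). H3K4me3 covered 35.6 to 37.8 bases per kb inside the clusters and 33.5 to 36.9 outside. Covered length moves with how much was called, and the number of H3K27me3 peaks per list on the chromosome was 1172 to 1445 in V16D/CTL and 980 to 1125 in V16D/H19. Its part in the difference was not tested.

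CpG content was lower in the median where no start was marked, with wide overlap. CpG content is given as observed over expected, the number of CpG dinucleotides relative to that set by the C and G content of the 300 bases. Its median was 0.777 over the 158 genes marked in all 6 lists with a sequence and 0.415 over the 11 with no marked start. Over the 14 with no peak at the 5′ end, which include these 11, it was 0.467. Over other genes, scored at the 5′ end only, it was 0.862 for the 8545 marked in all 6 lists and 0.278 for the 4150 marked in none. The ranges overlapped widely, from 0.310 to 1.16 in the marked ZNF genes and from 0.176 (ZNF404) to 1.01 (ZNF577) in those with no marked start. Of 25 ZNF genes under 0.5, 18 were marked in all 6 lists, and 6 were among the 11 with no marked start. The cluster at 19.7 to 24.1 Mb held 17 of the 25 (68%), and its median was 0.432.

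**Figure D4:**
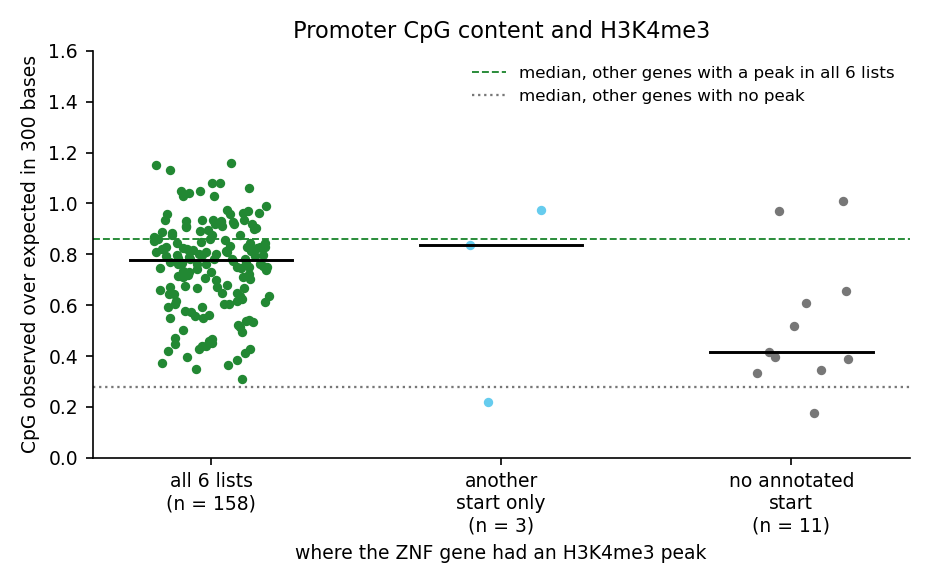
CpG observed over expected in 300 bases of promoter for chromosome 19 ZNF genes with a sequence at the start, by where they had an H3K4me3 peak. Genes marked in only some lists (ZNF112 and ZNF875) are not shown. Solid bars are medians (0.777 for genes marked in all 6 lists and 0.415 for those with no marked start). The dashed and dotted lines are the medians of other genes with (0.862) and without (0.278) H3K4me3 at the 5′ end.

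The printed pair shows how alike marked and unmarked promoters could be. ZNF486 and ZNF66 lie 609 kb apart and were 87.4% identical over the aligned promoter, with 10 and 9 CpG and each with an ETS-type motif and at least 1 TCCAATCA. ZNF66 had H3K4me3 in all 6 lists, at a mean percentile of 61.7 ± 3.23 (SD over the 6 lists) and a mean width of 1356 bases. ZNF486 had none, and its nearest peak was 114 kb away. ZNF90 against the marked ZNF93 (83.7%), ZNF626 against ZNF66 (83.0%) and ZNF681 against ZNF430 (82.4%) were similar cases, all in the cluster at 19.7 to 24.1 Mb. For the other 7 unmarked genes with a sequence the most alike marked promoter was 52.3 to 71.1% identical. The longest run of identical bases in any of these 11 pairs was 53. Unmarked promoters were not compared with each other or with the rest of the genome, so this run does not tell where reads could be placed. How reads that match several places were treated is not given in the sources used here, and its part in the absence of peaks was not tested.

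The 2 motifs were unevenly placed along the chromosome. CCGGAAG or its reverse complement was in 46.2% of the 158 marked ZNF promoters, in 37.9% of 145 marked ZNF promoters of other chromosomes, in 20.5% of the 8545 other marked promoters and in 14.8% of all 13241 promoters of the same length. TCCAATCA on either strand was in 25.3%, 10.3%, 1.51% and 1.92% of the same sets. Within chromosome 19 all 46 ZNF promoters with TCCAATCA lay in 3 clusters, which held 50 sequences, and none of the 124 elsewhere had it. It was in 4 of 5 promoters at 2.8 to 2.9 Mb, 18 of 21 at 11.5 to 12.6 Mb and 24 of 24 at 19.7 to 24.1 Mb. CCGGAAG was in 17 of 24 promoters of that last cluster, in 21 of 32 at 57.2 to 58.5 Mb and in 18 of 29 at 51.6 to 53.6 Mb, but in 2 of 21 at 11.5 to 12.6 Mb. The motifs do not overlap each other in letters.

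**Figure D5:**
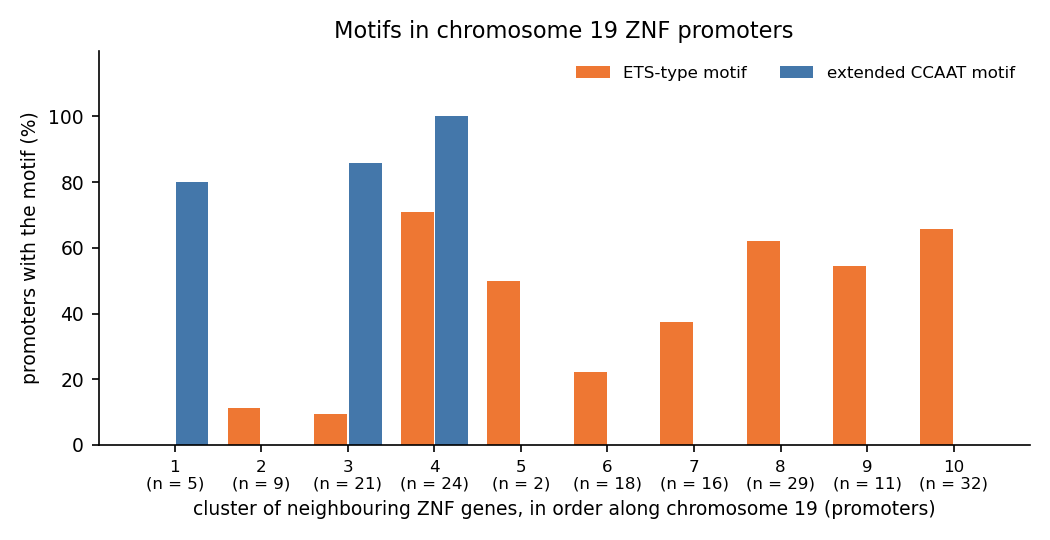
Share of promoters (300 bases) with the ETS-type motif (CCGGAAG) and with the extended CCAAT motif (TCCAATCA), either strand, in the 10 clusters of at least 5 ZNF genes in order along chromosome 19. The CCAAT motif is in 80, 85.7 and 100% of promoters of clusters 1, 3 and 4 and in none of the other 7.

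H3K4me3 strength is given with and without each motif. Mean percentile had a median of 67.7 over the 73 marked genes with CCGGAAG and 66.7 over the 85 without it. With and without TCCAATCA the medians were 65.8 (40 genes) and 67.3 (118 genes), while median width was 1641 and 1865 bases. Among the 11 genes with no marked start and a sequence, 4 had CCGGAAG and 6 had TCCAATCA. TATAAA was in 3.16% of the marked ZNF promoters, 4.14% of those on other chromosomes, 5.03% of other marked promoters and 9.98% of all promoters. These matches are descriptions of the letters and not of bound factors.

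Some starts could not be told apart. For 20 of the 240 genes another protein-coding start lay within 1 kb, and for 10 of these it was another member, in 5 pairs on opposite strands: ZNF490 and ZNF791, ZNF382 and ZNF529, ZNF461 and ZNF567, ZNF345 and ZNF790, and ZNF829 and ZNF568, whose starts were 41 to 427 bases apart. The 202 marked genes therefore rested on 196 or 197 different peaks in each list.

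The genes through which KRAB zinc finger proteins act were marked as well. Of 22 genes of the TRIM28 pathway, 21 had H3K4me3 at the 5′ end in all 6 lists (all genes 61.4%). UHRF1 had no peak there in any list, and other annotated starts were not counted for this set. Mean percentiles of the 21 ran from 44.6 (TASOR, of the HUSH complex) to 96.1 (CBX3, which encodes HP1 gamma, and the remodeler CHD4), with a median of 79.4. TRIM28 itself, on chromosome 19, stood at 79.7 in V16D/CTL against 72.7 in V16D/H19. SETDB1 stood at 88.2 and 86.5. None of the 21 was called by limma in either fit, and the adjusted p of TRIM28 by rank was 0.814. SUV39H1, an H3K9 methyltransferase, was the only gene of the 22 with a listed H3K4me3 site, where its concentration was 8.77 in V16D/CTL and lower in V16D/H19, at 8.48. Of all genes 5.54% had a listed site that was lower, so 1 of 22 is near the background. None of the 22 had a listed H3K27me3 site. TASOR had H3K27me3 in 5 of 6 lists and the others in none.

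The H3K4me3 lists held 20048 to 21934 peaks and the H3K27me3 lists 55060 to 72289, and read depth per library was not used here. All 6 luminal prostate markers (KLK2, KLK3, KRT8, KRT18, TMPRSS2 and FOLH1) had H3K4me3 at the start in all 6 lists. No basal epithelial (0 of 3), blood (0 of 3) or endothelial marker (0 of 1 with a start) had it in any list.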

How the data were processed

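The authors sequenced ChIP and input libraries as 75-base single-end reads and called peaks with MACS2 in each replicate against its input, narrow for H3K4me3 and broad for H3K27me3. The aligner is not given in the sources used here, and the build (hg38) comes from the submitters' processing notes. Each of the 12 deposited peak lists gives a fold over input (a ratio) together with p- and q-values as −log10. The 2 tables deposited by the authors, made with DiffBind and ChIPseeker, hold sites with an FDR up to 0.05 and the log2 concentration of each group. Their fold, p and FDR columns hold the authors' own comparison and were not used.

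Starts were the 5′ ends of RefSeq genes (GRCh38.p14), with the strand from GENCODE by symbol. The strongest peak overlapping 1 kb to either side by at least 1 base gave the width and the percentile within its list. limma 3.58.1 in R 4.3.3, with Benjamini-Hochberg adjustment, tested V16D/H19 against V16D/CTL (3 lists each) over all genes with a peak in all 6 lists, after a check on simulated data. Single values were compared by exact two-sided permutation tests (scipy 1.17.1). Promoters were aligned globally with biopython 1.88 (match 1, mismatch -1, gap -2 to open and -0.5 to extend), and identity is over all aligned columns. Alternatives were other windows, overlaps, thresholds, lists of equal length, rank by fold, summed length, the replicate block and each replicate left out.

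Genes were named where a site was listed, where H3K27me3 was in at least 3 of 6 lists, where rank or width was among the 4 highest or lowest, and by smallest p. The genes and lists were chosen with earlier results of these data known. Protein sequences were not used here.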

Additional observations from a re-analysis of the deposited data

How the results depend on the processing

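The number of genes with H3K4me3 in all 6 lists and the number with none stayed within 1.5 times under the planned windows, overlaps and thresholds. Counting any annotated start, an alternative added after seeing the data, lowered the number with none from 35 to 17. The difference in marked genes per list changed with the window. With 500 bases it was 0.333 for H3K4me3 and -1 for H3K27me3. With 2 kb it was 0.333 for H3K27me3 and 0.333 for both marks together. At any annotated start it was -0.333 for both marks together, where marks at different starts of a gene counted together. With both marks at 1 start, also added after seeing the data, it was -0.667, from ZNF536 alone. The cause was not tested. Of 120 refits for the 8 genes with the smallest p, 1 reversed, the width of ZNF135 with summed peaks (0.08), and 0 passed the threshold, with limma's adjusted p from 0.366 to 0.924. No ZNF gene was called in any refit, by rank or width. Among all ZNF genes of chromosome 19 fitted, limma's smallest adjusted p by width was 0.108, without V16D/CTL replicate 1. By rank it was 0.490, with lists of equal length. With the replicate block the count of ZNF genes called was 0 in both fits. The correlation of deviations between samples of the same number was 0.02 to 0.03 by rank and 0.02 to 0.06 by width, so the numbers were not taken to pair the samples. With 3 lists per group an exact test cannot give p below 0.1, peak lists hide changes under the peak threshold, and the read depth behind each list was not used here.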
